A study of Anas platyrhynchos with 12 samples.

Results

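The genes described here are the annotated cell cycle genes of duck breast muscle, taken as the gene models whose pathway annotation in the deposited table carries the cell cycle entry ko04110. Of 16433 gene models, 85 carried the entry, 5 of them (3 symbols) were left out, and 80 remained. The 80 comprised 11 replication genes, 12 mitotic genes, 13 cyclins and cyclin-dependent kinases, and 8 genes of the RB and E2F group. The other members were 13 genes of DNA damage and growth arrest, 3 of cohesin, 14 of the ubiquitin ligases APC/C and SCF, and 6 that feed growth signals into the cycle.

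RNA was sequenced from breast muscle of ducks (Anas platyrhynchos) of an F2 population at 42 days of age, all kept under the same feeding and housing. The submitters divided the samples by breast muscle ratio, into 6 from ducks with high ratios (HB) and 6 from ducks with low ratios (LB), and the labels name no treatment. The comparison asks which genes differ in expression between muscle of the 2 kinds. The labels do not say whether each of the 12 samples is a different bird, and the p-values therefore cover only sample-to-sample spread, which may be technical.

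A cell that divides licenses its replication origins, copies its DNA, checks it, and then separates the copies in mitosis. Cyclins activate cyclin-dependent kinases at each step, the retinoblastoma proteins hold back the E2F factors that switch on replication genes, and ubiquitin ligases remove cyclins and inhibitors when a step is complete. Muscle fibres themselves do not divide, and the muscle nuclei that are added during growth come from satellite cells. Breast muscle also holds fibroblasts, endothelial cells and leukocytes that can divide.

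Total counts per library lay between 24090771 and 42503751. Levels are given as FPKM (counts scaled to gene length and to the library's total), which can be compared between genes, and differences are given as log2 of HB over LB from the counts. Of the 80 members, 77 had enough reads to be tested. The cyclin gene CCNA1 had no read in any library, WEE2, a kinase that restrains CDK1 in mammalian oocytes, had 6 reads in all, and SFN, a 14-3-3 protein, had 18. Symbols of 3 members (STAG2, CCNB3 and EP300) were shared with another gene model, so their reads may be split between models and their values are uncertain. Libraries are named by group and number, and no source ties equal numbers in the groups to each other.

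Libraries HB-4 and HB-3 stood apart from the rest before any cell cycle gene was considered. In HB-4, MYOD1, the myogenic transcription factor, reached 714.10 FPKM against 96.22 to 275.60 in the other 11. In HB-3, genes that the reference table places on the Z chromosome were low relative to each gene's own mean over the 12 libraries. The median of these relative levels lay 0.33 log2 units below that of other genes, against differences of -0.04 to 0.08 in the other 11 libraries. Both libraries were kept, and values without them are given where they matter.

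No cell cycle gene separated the HB from the LB samples. With edgeR's quasi-likelihood test and Benjamini-Hochberg adjustment over 12577 genes, 0 of 77 members passed an adjusted p of 0.05, and so did 0 of all genes tested (0%). The smallest adjusted p of a member was 0.977. DESeq2 and limma called 0 members as well, and DESeq2 called 1 gene that is no member. At an unadjusted edgeR p under 0.05 there were 3 members (3.90%), against 4.60% of all genes. BUB1 and CDC20 had lower levels in HB, where 2.27% of all genes were on that side, and ORC3 had a higher level, where 2.34% of all genes were. In the authors' deposited table, 3 members also had p under 0.05 and 0 had an adjusted p under 0.05. In 0 of 77 members were the 6 HB values all above or all below the 6 LB values, against 0.0954% of all genes.

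The signs of the differences were close to even, with 36 members positive and 41 negative and a median log2 difference of -0.01, beside -0.00 over all genes tested. The spread within the groups exceeded the difference between them in 70 of 77 members (90.9%), against 88.5% of all genes. The difference exceeded its own standard error in 18 of 77 members (23.4%), against 4273 of all 12577 genes (34%).

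What varied was the level from library to library, and it varied most among the replication and mitotic genes. The highest library stood a median of 2.79 times above the lowest in the replication genes and 3.72 times in the mitotic genes. The same ratio was 1.59 in both the APC/C and SCF genes and the cohesin genes, and 2.12 over all genes tested. The replication and mitotic genes also had the lowest median levels of the role lists, at 2.82 and 2.5 FPKM. The median level was 6.38 FPKM in APC/C and SCF, 14.5 in cohesin and 5.52 over all genes tested. The part of low read numbers in these ratios was not tested. The library LB-6 was the highest of the 12 in 15 of 22 replication and mitotic members (68.2%), against 20.5% of all genes. This was not particular to them, as LB-6 was the highest in 39 of all 77 tested members (50.6%). Its share was 66.7% in cohesin, 50% in both the APC/C and SCF and the DNA damage and growth arrest genes, and 41.7% in cyclins and their kinases. It was 37.5% in the RB and E2F group and 16.7% in growth signal inputs. HB-5 was the lowest in 10 of 22 replication and mitotic members (45.5%), against 23.4% of all members and 14.3% of all genes.

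**Figure D1:**
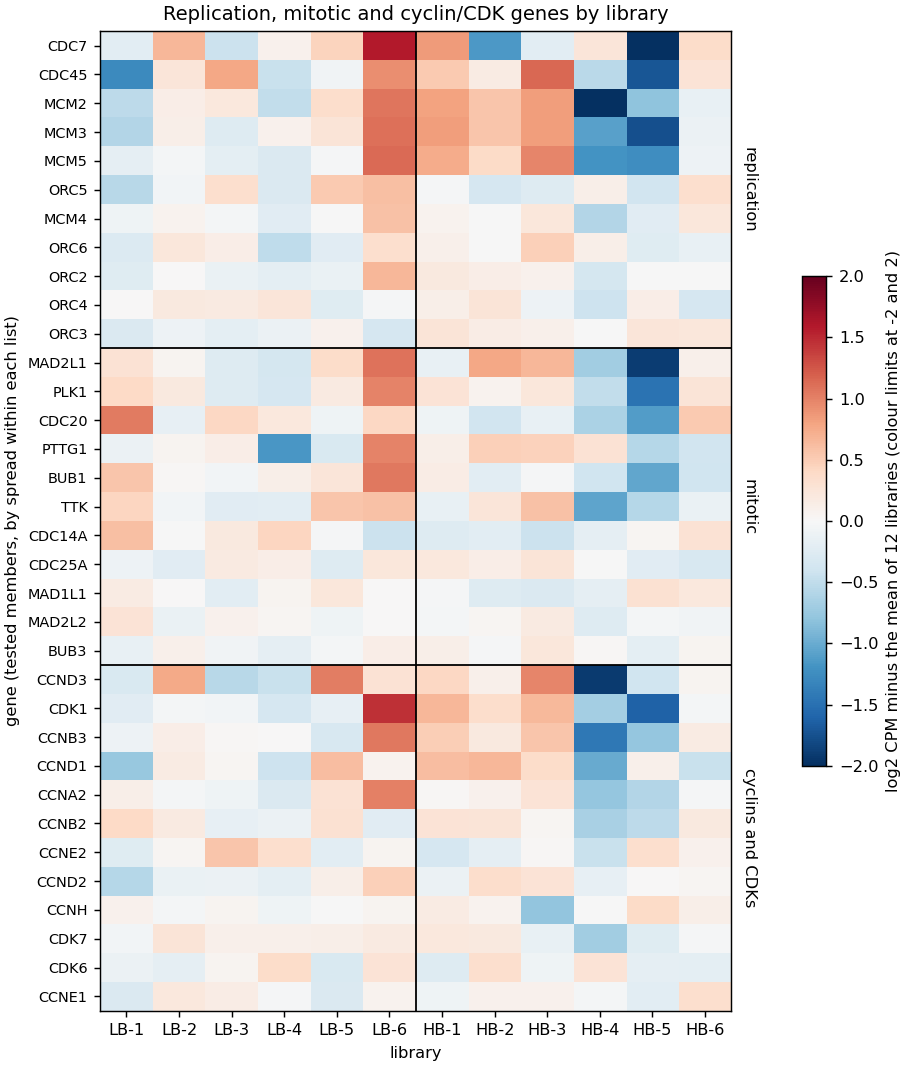
Relative level (log2 CPM minus the gene's mean over 12 libraries) in the 6 LB and 6 HB libraries (columns). CPM is counts scaled to the library's total after TMM adjustment of that total. Rows are the tested replication, mitotic, and cyclin and cyclin-dependent kinase members, grouped by role. LB-6 is high and HB-4 and HB-5 are low in most rows.

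Among the replication genes, whole-group differences were small beside the spread between libraries. The 11 members had 4 positive and 7 negative log2 differences with a median of -0.05, beside -0.00 over all genes. Leaving out LB-6 turned this median to 0.18, leaving out HB-4 turned it to 0.08 and leaving out HB-5 to 0.06, so its sign rested on these libraries. None of the 4 MCM members had an unadjusted edgeR p under 0.05.

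MCM2 to MCM5 encode subunits of the helicase that unwinds DNA at replication forks. MCM2 read 3.65, 6.82, 6.79, 3.91, 7.72 and 13.43 FPKM in LB-1 to LB-6, and 10.00, 8.69, 10.27, 1.38, 3.02 and 5.35 FPKM in HB-1 to HB-6. Of the HB samples, 3 lay above every LB sample but LB-6, HB-4 and HB-5 lay below all LB samples, and the groups overlapped. Group means were 6.45 ± 3.77 FPKM in HB and 7.05 ± 3.54 in LB (SD, n = 6 each), a log2 difference of -0.07 with a standard error of 0.42. Without HB-3 and HB-4 it was 0.00.

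MCM3 and MCM5 had the same shape. MCM3 ran from 0.65 through a median of 2.98 to 4.33 FPKM in HB, and from 1.46 through 2.65 to 5.73 in LB. MCM5 ran from 1.55 through 4.65 to 7.94 FPKM in HB and from 3.15 through 3.87 to 9.81 in LB. For both genes HB-5 was the lowest library and LB-6 the highest, HB-4 was the other very low sample, and HB-1 and HB-3 were the highest of the HB samples. Their log2 differences were -0.05 (SE 0.42) and 0.00 (SE 0.39).

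MCM4 was more abundant and steadier. It had a mean of 11.5 ± 2.62 FPKM in HB and 12.8 ± 3.65 in LB, with a log2 difference of -0.10 (SE 0.16). LB-6, at 19.66 FPKM, was again the highest library, and HB-4, at 7.50, the lowest.

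CDC45, which joins the helicase when an origin fires, was scarce, at 0.09 to 0.79 FPKM in HB and 0.12 to 0.76 in LB, from 9 to 104 reads per library. CDC7, the kinase that triggers firing, was scarcer still, with 2 to 65 reads per library. Its level ran from 0.02 through a median of 0.178 to 0.34 FPKM in HB and from 0.13 through 0.223 to 0.64 in LB, and the groups overlapped. The log2 difference of CDC7 was -0.63, with a standard error of 0.54. It was -0.24 without LB-6.

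ORC genes encode the origin recognition complex, which marks where replication can start. The highest library was 1.62 to 2.79 times the lowest for ORC2 to ORC6, against 2.62 times for MCM4 and 6.32 to 9.75 times for MCM2, MCM3 and MCM5, and the difference between these ratios was not tested. ORC3 read 2.68, 2.56, 2.42, 2.14, 2.45 and 2.71 FPKM in HB-1 to HB-6 and 1.67, 2.27, 1.99, 1.98, 2.48 and 1.98 in LB-1 to LB-6. Most HB samples lay above most LB samples, but LB-5 and LB-2 lay within the HB range. The log2 difference of ORC3 was 0.32 (SE 0.10), with an unadjusted edgeR p of 0.00548 and an adjusted p of 0.977. The unadjusted p lay between 0.00209 and 0.0132 when each library was left out in turn, and was 0.0523 with limma on log2(FPKM + 0.1). ORC5 had a log2 difference of the other sign, -0.23 (SE 0.24), from 0.70 ± 0.158 FPKM in HB and 0.855 FPKM in LB.

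Most mitotic genes had a lower mean level in HB, and none passed the test. Of 11 tested members 8 had negative differences (72.7%, against 50.1% of all genes). The median log2 difference was -0.25, beside -0.00 over all genes. These genes share libraries, so their signs are not independent. Without LB-6 the median was -0.07, which is the smallest value that leaving out 1 library gave. The relative level of the list had a mean of -0.12 ± 0.29 log2 units over the 6 HB libraries and of 0.12 ± 0.22 over the 6 LB libraries (SD).

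**Figure D2:**
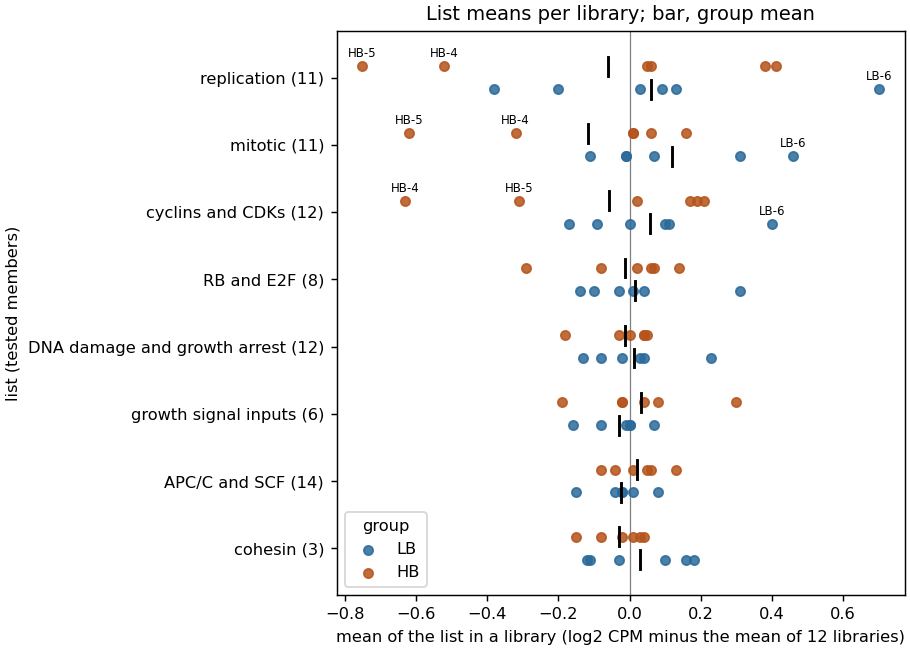
Mean relative level (log2 CPM minus the gene's mean over 12 libraries) of each role list in each library, LB and HB. LB-6 is the highest point in the replication, mitotic and cyclin lists, at 0.70, 0.46 and 0.40, and HB-5 or HB-4 the lowest. LB-6 is also the highest in the RB and E2F, DNA damage and cohesin lists, at 0.31, 0.23 and 0.18. The APC/C and SCF list stays between -0.15 and 0.13.

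BUB1 is a kinase of the spindle checkpoint, which delays the separation of chromosomes until all are attached. It read 2.04, 1.62, 1.80, 1.33, 0.82 and 1.44 FPKM in HB-1 to HB-6 and 2.45, 2.01, 1.79, 1.91, 2.27 and 4.24 in LB-1 to LB-6. Of the HB samples, 4 lay below every LB sample, while HB-1 and HB-3 lay within the LB range. Means were 1.51 ± 0.424 and 2.44 ± 0.91 FPKM, with a log2 difference of -0.65 (SE 0.23). The unadjusted edgeR p was 0.0142 and the adjusted p 0.977. Without LB-6, whose value was far above those of the other LB samples, the log2 difference was -0.46.

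CDC20 activates the APC/C once the checkpoint is satisfied. Its level was 7.21, 5.97, 6.88, 4.71, 3.24 and 11.35 FPKM in HB-1 to HB-6, and 14.33, 7.39, 10.40, 8.46, 7.48 and 11.25 FPKM in LB-1 to LB-6. The HB samples were below the LB samples except for HB-6, and here LB-1 rather than LB-6 was highest. The log2 difference was -0.58 (SE 0.26), with an unadjusted edgeR p of 0.0466 and an adjusted p of 0.977. Without LB-1 the log2 difference was -0.40 with an unadjusted p of 0.135, and without HB-6 it was -0.79 with an unadjusted p of 0.00655.

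**Figure D3:**
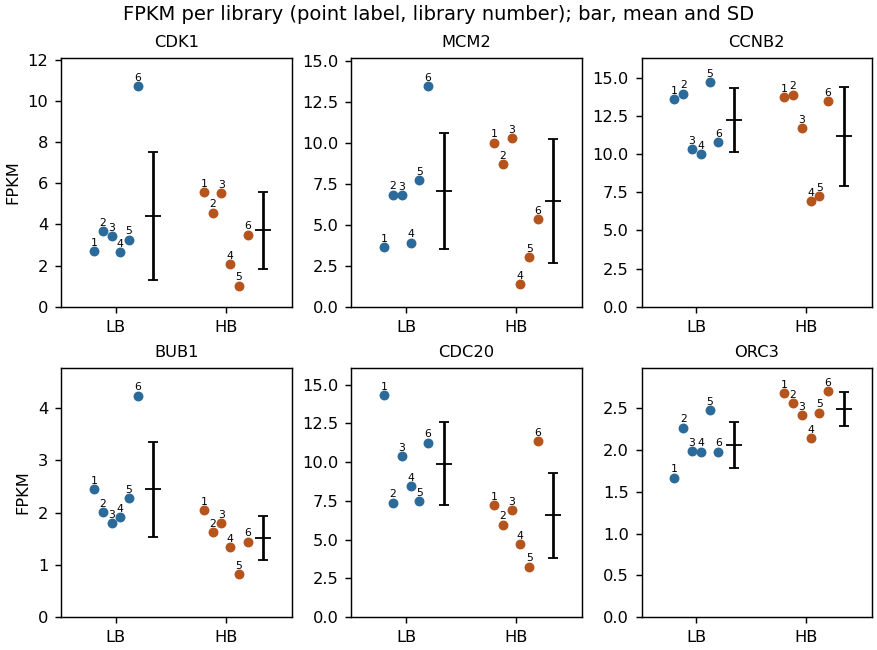
Level in FPKM of selected members in each of the 6 LB and 6 HB libraries, with the group mean and SD drawn beside the points. BUB1 and CDC20 have lower means in HB (1.51 and 6.56) than in LB (2.44 and 9.88), ORC3 a higher one (2.49 against 2.06), and in every panel the groups overlap.

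Negative differences with wider errors were also found in MAD2L1, PLK1 and TTK. MAD2L1, the checkpoint protein that binds CDC20, ran from 0.48 through a median of 2.07 to 3.65 FPKM in HB and from 1.54 through 2.31 to 4.89 in LB. PLK1, the polo kinase needed to build the spindle, ran from 0.53 through 1.86 to 2.05 FPKM in HB and from 1.25 through 1.97 to 3.66 in LB. For both, HB-5 was the lowest library and LB-6 the highest, and the groups overlapped over most of their range. Their log2 differences were -0.25 (SE 0.40) and -0.34 (SE 0.31), and TTK, a kinase of the same checkpoint, had -0.32 (SE 0.28).

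PTTG1, or securin, which restrains the protease that opens cohesin, had a difference near 0 of 0.05 (SE 0.33), over a range of 0.94 to 5.11 FPKM in LB and 1.41 to 3.30 in HB. CDC14A, a phosphatase of the CDC14 family, had 3.46 ± 0.685 FPKM in HB and 4.25 ± 0.746 in LB, with a log2 difference of -0.27 (SE 0.17). Its highest library was LB-1, as for CDC20.

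MAD2L2 and BUB3 were the abundant and steady members of this group. MAD2L2 is a relative of MAD2L1 with a further role in DNA repair, and it stood at 34.9 ± 4.07 FPKM in HB and 37.4 ± 2.16 in LB. BUB3, the partner of BUB1, had mean levels of 35.0 and 34.5 FPKM. Their log2 differences of -0.06 and 0.07 each had a standard error of 0.09. Per length, both were far more abundant than BUB1, PLK1 and MAD2L1.

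No cyclin or cyclin-dependent kinase passed the test between groups, and none had an unadjusted edgeR p under 0.05. Of 12 tested, 4 had positive and 8 negative log2 differences, with a median of -0.13. HB-4 was the lowest library in 7 of the 12 (58.3%), against 32.5% of all members and 21.5% of all genes. Its share was 50% in the RB and E2F group, 36.4% in replication, 35.7% in APC/C and SCF and 18.2% in mitotic genes. It was 16.7% in both the DNA damage and growth arrest genes and the growth signal inputs, and 0% in cohesin.

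CDK1, the kinase that drives entry into mitosis, had the widest range in this list. It read 2.70, 3.68, 3.43, 2.64, 3.26 and 10.70 FPKM in LB-1 to LB-6, and 5.56, 4.58, 5.51, 2.07, 1.02 and 3.51 in HB-1 to HB-6. LB-6 was far above all other samples, and apart from it 3 of the HB samples lay above all LB samples and HB-4 and HB-5 below. The log2 difference was -0.19 (SE 0.41) with all libraries and 0.25 without LB-6. The highest library was 10.5 times the lowest, and still 5.45 times with LB-6 set aside.

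Its mitotic partner CCNB2 did not share the peak in LB-6, where it stood at 10.77 FPKM among LB values of 10.00 to 14.68. In HB it ran from 6.92 through a median of 12.6 to 13.88 FPKM, with HB-4 and HB-5 the low samples, as for CDK1. The log2 difference of CCNB2 was -0.11 (SE 0.18), and 0.01 without HB-3 and HB-4. CCNB3, a further B-type cyclin, did peak in LB-6, at 8.17 FPKM, and its log2 difference was -0.18 (SE 0.34). CCNA2, the cyclin of DNA replication and entry into mitosis, ran from 1.29 through 2.33 to 2.79 FPKM in HB and from 1.80 through 2.35 to 5.16 in LB, with LB-6 as the high sample. Its medians were nearly equal, and its log2 difference was -0.35 (SE 0.24), or -0.12 without LB-6.

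Of the D-type cyclins, which couple growth signals to the cycle, CCND1 was the most abundant. CCND1 had 22.3 ± 9.05 FPKM in HB and 21.0 ± 7.60 in LB, and CCND2 had 6.67 ± 1.17 and 6.43 ± 2.01. Log2 differences were 0.15 (SE 0.29) and 0.11 (SE 0.16). CCND3 ran from 1.15 FPKM in HB-4 to 9.73 in LB-5, with a log2 difference of -0.16 (SE 0.40). CCND1 was also lowest in HB-4, at 9.54 FPKM.

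CCNE2, a cyclin that starts replication, had mean levels of 1.57 FPKM in HB and 1.84 in LB, a log2 difference of -0.18 (SE 0.19). CDK7 and CCNH form the kinase that activates other cyclin-dependent kinases. CDK7 had 9.47 ± 2.30 FPKM in HB and 11.3 ± 1.55 in LB, with a log2 difference of -0.21 (SE 0.14). CCNH had 29.1 ± 6.52 FPKM in HB and 29.7 ± 2.47 in LB, and HB-3, at 16.66 FPKM, was the low sample, against 27.43 to 34.58 in the other HB samples. The reference table places CCNH on the Z chromosome, whose genes were low in HB-3 as a class. The other 3 members on the Z chromosome were not as low in HB-3, which differed from the mean of the other libraries by -0.17 log2 units in CDK7, 0.04 in SKP2 and 0.40 in SMAD4, against -0.86 in CCNH.

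**Figure D4:**
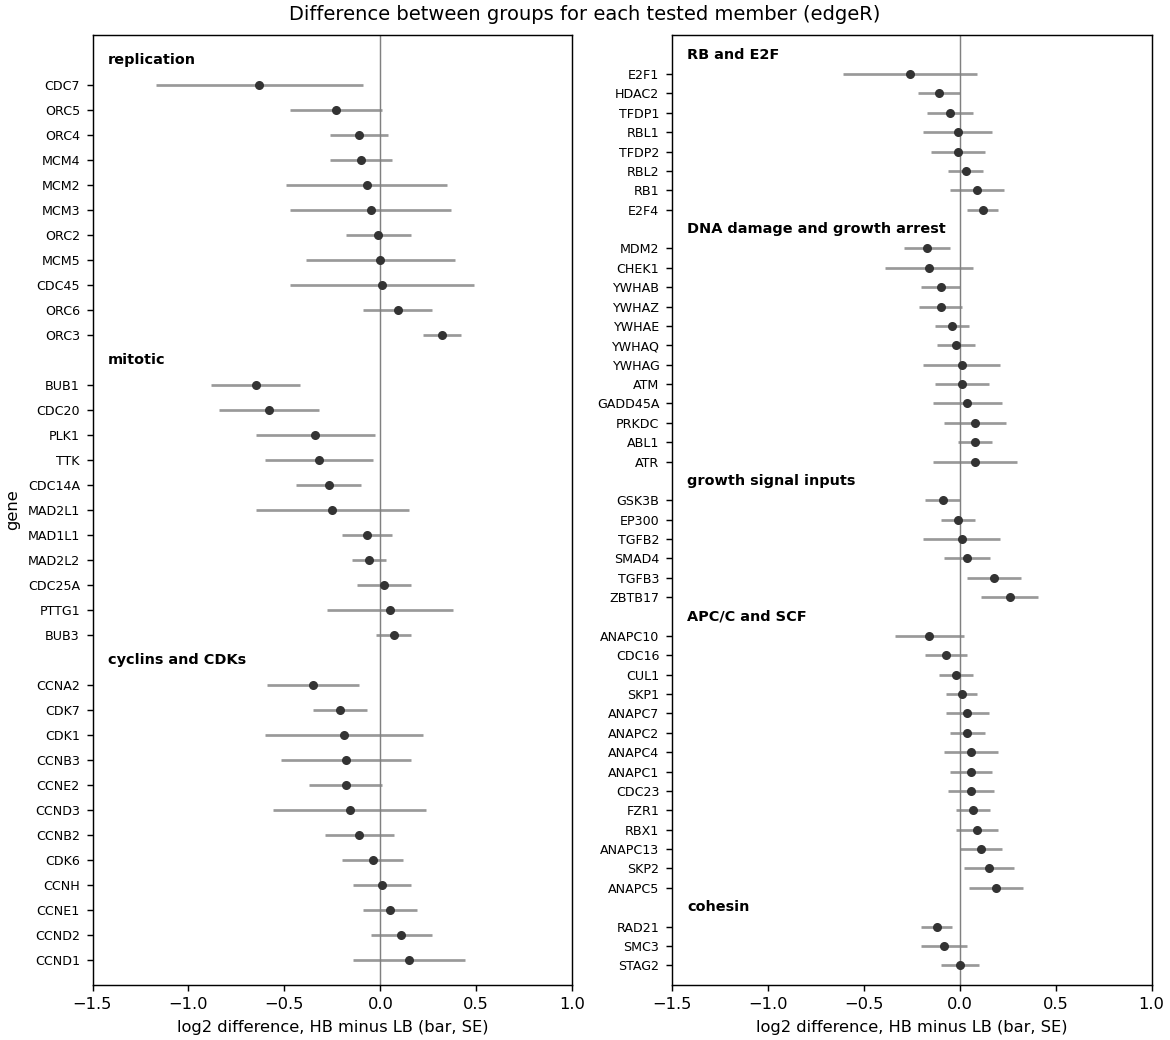
Log2 difference of HB over LB with its standard error for the tested cell cycle members, ordered by role, from counts over 6 libraries in each group. The widest errors are among replication, mitotic and cyclin genes. The APC/C and SCF genes sit close to 0, with 11 of 14 on the positive side, against 6277 of all 12577 genes tested.

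In the retinoblastoma proteins, which hold back the cycle, the group means differed by less than the spread within either group. RB1, the retinoblastoma protein, ran from 2.32 through a median of 3.50 to 4.75 FPKM in HB and from 2.79 through 3.10 to 4.56 in LB, with a log2 difference of 0.09 (SE 0.14). Its relatives RBL1 and RBL2 had log2 differences of -0.01 (SE 0.18) and 0.03 (SE 0.09). RBL2, which is typical of resting cells, was the most abundant of the 3, at 14.9 ± 1.31 FPKM in HB and 15.1 ± 1.88 in LB.

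E2F1, an activator of replication genes that RB1 restrains, ran from 0.76 through 2.21 to 3.02 FPKM in HB and from 1.47 through 1.95 to 5.47 in LB. LB-6 was the high sample and HB-4 the low one, and the medians lay in the opposite order to the means. The log2 difference was -0.26 (SE 0.35), and 0.09 without LB-6. E2F4, a partner of RBL2 in repression, had 0.12 (SE 0.08), and the histone deacetylase HDAC2 had -0.11 (SE 0.11). Over the 8 members of this group the median was -0.01.

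The inhibitors of cyclin-dependent kinases do not carry the pathway entry in the deposited annotation, so none is among the 80, and their models were described beside them. Of 6 models 5 were tested, with 2 positive and 3 negative differences. CDKN1B, or p27, which holds cells in arrest, ran from 12.52 through a median of 15.4 to 18.78 FPKM in HB and from 14.07 through 16.9 to 18.69 in LB, with a log2 difference of -0.03 (SE 0.13). The groups overlapped almost entirely. CDKN1C, or p57, had 3.36 ± 0.907 FPKM in HB and 3.78 ± 0.862 in LB, a log2 difference of -0.14 (SE 0.23). CDKN2C, an inhibitor of CDK4 and CDK6, had 6.43 ± 1.28 and 6.09 ± 1.41 FPKM, a log2 difference of 0.13 (SE 0.17). The 2 models with the symbol CDKN2B had log2 differences of -0.36 (SE 0.48) and 0.07 (SE 0.35), and reads may be split between them. CDKN1A, or p21, had 10 reads over the 12 libraries and was not tested.

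**Figure D5:**
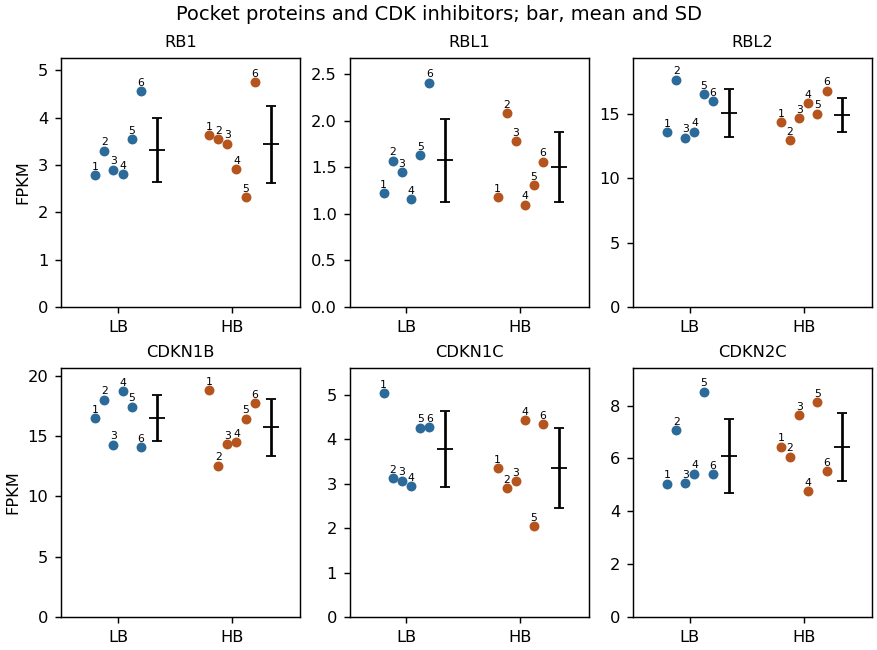
Level in FPKM of genes that restrain the cell cycle in each of the 6 LB and 6 HB libraries, with the group mean and SD drawn beside the points. CDKN1B means are 15.7 in HB and 16.5 in LB and RBL2 means are 14.9 and 15.1, and the libraries of the groups overlap in every panel.

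The group of DNA damage and growth arrest had 6 positive and 6 negative differences among 12 tested, with a median of -0.01. The 12 include the 14-3-3 genes YWHAB, YWHAE, YWHAG, YWHAQ and YWHAZ. CHEK1, a kinase that halts the cycle when replication stalls, ran from 1.80 to 3.82 FPKM in HB and from 2.23 to 5.19 in LB, and its log2 difference was -0.16 (SE 0.23). MDM2, which marks p53 for destruction, had 9.29 ± 0.992 FPKM in HB and 10.8 ± 1.53 in LB, with a log2 difference of -0.17 (SE 0.12). GADD45A, a stress gene that slows the cycle, had mean levels of 8.24 and 8.29 FPKM. The most abundant of this group was YWHAE, a 14-3-3 protein that binds phosphorylated partners, at 214 ± 27.2 FPKM in HB and 227 ± 21.0 in LB, with a log2 difference of -0.04 (SE 0.09).

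The GADD45A relatives GADD45B and GADD45G, which do not carry the pathway entry, were far less steady. GADD45G ran from 7.86 to 135.53 FPKM in HB and from 26.74 to 247.31 in LB, a range of 31.5 times over the 12 libraries, and its log2 difference was -1.15 with a standard error of 0.78. GADD45B was at 111.44 FPKM in HB-4, the library that also stood apart in MYOD1, and had a mean of 28.3 ± 41.1 FPKM in HB and 17.3 ± 12.2 in LB.

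The ubiquitin ligases were the steadiest of the larger groups. Of the 14 APC/C and SCF members 11 had positive differences, against 6277 of all 12577 genes, but the median was only 0.06. In 2 of the 14 the difference exceeded its own standard error. ANAPC5, a scaffold subunit of the APC/C, had mean levels of 6.58 FPKM in HB and 5.98 in LB, a log2 difference of 0.19 (SE 0.14). SKP2, the receptor by which SCF removes p27, had 2.53 and 2.36 FPKM and a log2 difference of 0.15 (SE 0.13). SKP1, an SCF adaptor, was at 49.8 ± 3.73 FPKM in HB and 51.2 ± 6.58 in LB. Its log2 difference, from counts with TMM scaling, had the other sign, at 0.01 (SE 0.08), so signs this near 0 depend on the scaling.

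Cohesin, the ring that holds sister chromatids together, had 3 members. RAD21 stood at 20.9 ± 2.45 FPKM in HB and 23.4 ± 2.92 in LB, with a log2 difference of -0.12 (SE 0.08). SMC3 had -0.08 (SE 0.12) and STAG2 0.00 (SE 0.10). Cohesin also acts in genome folding in cells that do not divide.

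Among the growth signal inputs, ZBTB17, a repressor of cyclin-dependent kinase inhibitor genes when bound to its partner, had 13.5 ± 3.14 FPKM in HB and 11.6 ± 1.48 in LB. Its log2 difference was 0.26 (SE 0.15), with an unadjusted edgeR p of 0.0982. TGFB3, a growth factor of the TGF-beta family, had 50.5 ± 5.75 and 45.8 ± 10.2 FPKM, a log2 difference of 0.18 (SE 0.14). GSK3B, a kinase that marks cyclin D1 for removal, had -0.09 (SE 0.09). The list of 6 had a median of 0.03.

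The role lists also held 29 symbols, with 35 models, that lacked the pathway entry. Of these models 30 were tested, with 17 positive and 13 negative differences, and 0 had an unadjusted edgeR p under 0.05. Of a further list of 48 genes of proliferation, 43 had models without the entry. They gave 61 models, of which 49 were tested. Their differences were negative in 38 (77.6%, against 50.1% of all genes) and positive in 11, with a median of -0.23 beside -0.00 over all genes. LB-6 was the highest library in 41 of the 49 and HB-5 the lowest in 26, and a median without LB-6 was not computed. Some symbols had more than 1 tested model. In this list 3 models had an unadjusted p under 0.05, with 1 on the positive side and 2 on the negative side. That is 6.12% of the list against 4.60% of all genes, and among the 35 genes with a single model it was 1 (2.86%). The positive one was 1 of 2 models of RRM1, a subunit of the enzyme that makes DNA precursors, with a log2 difference of 0.48 (SE 0.21), while the other RRM1 model had 0.06 (SE 0.12).

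The first of the negative ones was DLGAP5, a spindle protein, which ran from 1.41 through a median of 3.35 to 4.32 FPKM in HB and from 2.89 through 6.79 to 8.45 in LB. Of the LB samples, 4 lay above all HB samples, but the ranges overlapped. The log2 difference of DLGAP5 was -0.97 (SE 0.34), with an unadjusted edgeR p of 0.0131 that did not pass adjustment. The second was 1 of 9 models with the symbol MKI67, a protein of dividing cells, and reads may be split between these models. The log2 difference of this model was -0.73 (SE 0.31), with an unadjusted edgeR p of 0.0359 and an adjusted p of 0.977. The other tested MKI67 models had log2 differences of -0.66 (SE 0.40), -0.24 (SE 0.35) and 0.28 (SE 0.85). TOP2A, the enzyme that untangles replicated DNA, ran from 0.72 through 2.78 to 3.34 FPKM in HB and from 2.48 through 2.79 to 7.25 in LB, with LB-6 the high sample. Its log2 difference was -0.50 (SE 0.32), or -0.20 without LB-6 and -0.32 without HB-5.

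Library by library, LB-6 was above the mean in 9 of 11 replication, 10 of 11 mitotic and 11 of 12 cyclin and kinase members. The same library was the highest of the 12 in 29 of 35 proliferation genes with a single model (82.9%), and HB-5 was the lowest in 21 of 35 (60.0%). HB-4 was above the mean in 3, 2 and 1 members of the 3 groups, and HB-5 in 2, 2 and 4. The standing of a library in the replication genes was not always its standing in the mitotic genes. In LB-1, 1 of 11 replication members but 8 of 11 mitotic members lay above the mean, with list means of -0.38 and 0.31. In HB-1 the counts were 10 and 5, with list means of 0.41 and 0.01.

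Markers of the cells that muscle holds were read in the same libraries. LB-6 had the highest level of PAX7, the satellite cell factor, at 7.93 FPKM, but HB-5, lowest in mitotic genes, had 5.85. The summed level of 6 satellite cell and myoblast markers was 157 to 764 FPKM in HB, with HB-4 highest, and 210 to 344 in LB, with LB-6 at 242 and HB-5 at 300. Most of each sum was MYOD1, at 714.10 FPKM in HB-4, 149.66 in LB-6 and 199.77 in HB-5. CDH15 and MYOG, at 13.56 and 3.07 FPKM, were lowest of the 12 libraries in HB-4. MYOG, like PAX7, was highest in LB-6, at 16.57 FPKM, while CDH15, MYF5, MYOD1 and VCAM1 were not. Fibroblast markers (4 of 5 symbols found) summed to 366 to 559 FPKM in HB and 406 to 780 in LB, with LB-6 at 780 and HB-5 at 395. Endothelial markers (5 of 5) summed to 208 to 355 FPKM in HB, where HB-5 was lowest and HB-4 stood at 219, and to 250 to 388 in LB. CDH5, KDR and TEK were each lowest in HB-4, at 57.51, 8.88 and 6.16 FPKM, while VWF was highest there, at 96.32. Leukocyte markers (5 of 6) summed to 59.0 to 73.4 FPKM in HB and 51.3 to 73.9 in LB, with LB-6 lowest. Most of each leukocyte sum was LCP1, which was lowest in LB-1, at 33.25 FPKM, and no single leukocyte marker was lowest in LB-6. Muscle fibre markers (4 of 7) summed to 41867 to 71610 FPKM in HB, with HB-5 highest, and 37190 to 52838 in LB. Most of each of these sums was ACTA1, at 58165.8 FPKM in HB-5. Red cell markers (2 of 5) summed to 2582 to 7259 FPKM in HB, with HB-5 lowest and HB-1 highest, and 3491 to 5611 in LB. Adipocyte markers (4 of 4) summed to 269 to 556 FPKM in HB, with HB-6 highest and HB-4 at 538, and 314 to 406 in LB. Most of each adipocyte sum was ADIPOQ, which was highest in HB-6, at 376.58 FPKM. PLIN1, CIDEC and FABP4 were each highest in HB-4, at 36.37, 7.26 and 196.44 FPKM. Schwann cell markers (3 of 4), which summed to 8.76 to 14.2 FPKM in HB and 11.0 to 31.2 in LB, had 2 of 3 at an unadjusted edgeR p under 0.05, against 0 in each of the other 7 marker lists and 4.60% of all genes. No marker found was at 0 in all libraries, and the part of these cell types in the levels of cell cycle genes was not tested. The samples are whole muscle, so the number of dividing cells in a library and the RNA per cell cannot be told apart. Nor can satellite cells be told from other dividing cells as the source of these reads.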

How the data were processed

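Per the submitters' processing notes, fastp 0.18.0, HISAT2, StringTie 1.3.1 and DESeq2 were used. Genome build, annotation and counting method were not given in the sources used here. Per the file headers, the authors deposited whole-number counts per gene for 12 libraries, a mean FPKM per group, and log2 fold changes, p-values and adjusted p-values of HB against LB. Another 12 value columns, which could not be tied to samples, were not used.

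FPKM per library was computed from the counts, the library total and the gene length implied by the deposited FPKM means. In 10188 genes at 1 FPKM or more on average, the lengths that the HB and LB means imply were within 0.463% of each other. Counts were tested with edgeR 4.0.16 (R 4.3.3; TMM scaling, filterByExpr, quasi-likelihood test) over all 12 libraries without covariates, with Benjamini-Hochberg adjustment over 12577 genes and a threshold of 0.05. Relative levels used log2 CPM with TMM scaling and a prior count of 2. The script was tested on simulated data. Alternatives used DESeq2 1.42.0, limma 3.58.1 on log2 FPKM, other scalings and filters, and left out libraries.

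Column names give the group and a number but not the sample, so libraries carry those numbers as names only. All 80 members were found in the reference gene table, which was used only for symbols and for placement on the Z chromosome. Some role-list genes had no model by symbol and were not analysed here. Genes planned to be named were a set of central cell cycle genes, MKI67, TOP2A and up to 2 other proliferation genes with the smallest p. In each role list they were up to 3 members with the smallest unadjusted p and the member with the highest level. Not all of these are given with values, and ANAPC13, YWHAB and YWHAZ are not. Further members, the stress genes GADD45B and GADD45G and RRM1 were named after their values were seen. The members and lists were chosen with earlier results of these data known.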

Additional observations from a re-analysis of the deposited data

Results flagged for a closer look

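In 11 of 112 groups of 6 values examined, the gap between the highest or lowest library and its nearest neighbour exceeded the share of the group's range that Dixon's test allows, where chance flags about 1 in 20 (5.6 groups). In 10 of the 11 the library was LB-6. CDK1 stood at 10.70 FPKM in LB-6 against 2.64 to 3.68 in the other LB libraries, and E2F1 at 5.47 against 1.47 to 2.38. BUB1 stood at 4.24 FPKM against 1.79 to 2.45, and CCNA2 at 5.16 against 1.80 to 2.94. CDC7 was at 0.64 FPKM against 0.13 to 0.32, and MCM4 at 19.66 against 9.63 to 13.32. Outside the pathway entry, TOP2A was at 7.25 FPKM against 2.48 to 3.14. Of the models with the symbol MKI67, ncbi_113841640 was at 1.31 FPKM against 0.36 to 0.65, and ncbi_113840809 at 1.17 against 0.43 to 0.54. The mean relative level of the proliferation list was 0.89 in LB-6 against -0.22 to 0.10 in the other LB libraries. In the HB group, the mean relative level of the DNA damage and growth arrest list was -0.18 in HB-5 against -0.03 to 0.05. These genes share libraries, so the flags are not independent.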

How the results depend on the processing

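The results were recomputed under 21 settings, of which 12 left out 1 library each and 9 changed the tool, scaling, filter or pseudocount or dropped both HB-3 and HB-4. No setting called a cell cycle member, and DESeq2 called 1 gene of all genes against 0 with edgeR. Leaving out 1 library, the median log2 difference lay between -0.19 and 0.18 for replication members, between -0.28 and -0.07 for mitotic members and between -0.06 and 0.04 for all members. Under the other settings these medians lay between -0.16 and -0.03, between -0.29 and -0.15, and between -0.06 and -0.01. No median of inhibitor members was computed, because no inhibitor carries the pathway entry. BUB1, ORC3 and CDC20 were picked for their unadjusted edgeR p under 0.05 in the main fit, and every setting reused most of its libraries. Their p-values under these settings are therefore no separate support. The unadjusted p stayed under 0.05 in 12 of 12 settings without 1 library for BUB1 (0.00783 to 0.0437) and ORC3, and in 3 of 12 for CDC20 (0.00655 to 0.135). Under the other settings it did so in 9 of 9 for BUB1 and in 8 of 9 each for ORC3 (0.00164 to 0.0523) and CDC20 (0.0276 to 0.129), and the log2 difference of ORC3 was 0.19 with limma on log2(FPKM + 1). Of 964 gene values under alternatives 914 kept their sign and 50 did not, and 30 of 46 genes kept it throughout. The cause of the reversals was not tested. With limma on log2(FPKM + 1) the log2 difference was -0.01 for RBL2, -0.00 for CDKN2B (ncbi_113840388), -0.03 for SKP1, -0.04 for STAG2 and -0.06 for CCNH. With a pseudocount of 0.1 these were -0.01, -0.09, -0.03, -0.04 and -0.07. Upper quartile scaling gave -0.00 for SKP1 and -0.01 for STAG2. Total counts gave -0.01 for RBL2, -0.04 for SKP1, -0.05 for STAG2 and -0.03 for CCNH. Without HB-3 and HB-4, CCNB2 had 0.01, MCM2 0.00, CDKN1B 0.03, CDKN2B (ncbi_113840388) -0.16, SKP1 -0.04 and MKI67 (ncbi_113840809) 0.04. Leaving out 1 library at a time, the log2 difference ranged from -0.07 to 0.14 for CCNH, -0.34 to 0.25 for CDK1, -0.09 to 0.03 for CDKN1B, -0.25 to 0.00 for CDKN1C and -0.42 to 0.09 for E2F1. It ranged from -0.67 to 0.04 and from -0.15 to 0.24 for the CDKN2B models ncbi_113840168 and ncbi_113840388. It ranged from -0.25 to 0.18 for MCM2, -0.16 to 0.04 for MCM4, -0.57 to 0.02 for MKI67 (ncbi_113840809), -0.01 to 0.18 for RB1 and -0.00 to 0.08 for RBL2. SKP1 ranged from -0.02 to 0.04, STAG2 from -0.05 to 0.05 and YWHAE from -0.07 to 0.00. The columns of both groups are numbered 1 to 6, but no label ties equal numbers to a shared bird, litter or day, so no fit paired them. The scarcest members tested included CDC7, with 2 to 65 reads per library, and CDC45, with 9 to 104.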
